A study of Homo sapiens with 16 samples.

Results

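The tumour necrosis factor (TNF) superfamily and its receptors were followed in MDA-MB-231 cells, an established human triple-negative breast cancer line, by sequencing of polyadenylated RNA. Members were taken by gene symbol: every numbered TNFRSF and TNFSF gene, together with TNF, LTA, LTB, LTBR, FAS, FASLG, CD40, CD70, CD27, EDAR and EDA2R. The rule found 43 of the 57500 genes in the table, of which 34 had at least 10 counts summed over the 16 libraries and 26 had enough counts to be tested, beside 15566 genes tested in all. The cells carried a short hairpin RNA whose expression is induced by doxycycline. The hairpin was either a scrambled control (shScramble) or directed against AKAP2 (shAKAP2), an A-kinase anchoring protein that holds protein kinase A in place. Both lines were sampled without doxycycline and with it, in 4 groups of 4 libraries. All 4 groups carry a hairpin, and parental cells without one were not analysed here. The sources used here do not state the dose and time of doxycycline, the hairpin sequences or whether a line is a clone or a pool. Replicates are labelled as biological, but no separate cultures are named, so each p-value measures spread among libraries that may be partly technical.

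Ligands of the family are mostly trimers made at the cell surface, where proteases can release them, and they gather their receptors into clusters. Receptors with a death domain in their cytoplasmic tail can recruit FADD or TRADD and start caspase-driven death or NF-kB signalling, while most of the others bind TRAF adaptors and signal to NF-kB and kinases. Decoy receptors bind ligand but lack a working tail. In breast tissue and its tumours the family is known above all for the RANKL, RANK and osteoprotegerin axis (TNFSF11, TNFRSF11A and TNFRSF11B), which also governs bone resorption.

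Library totals ran from 24482997 to 37472525 counts. AKAP2 had 42, 36, 37 and 53 counts in the shAKAP2 libraries without doxycycline and 3, 0, 1 and 0 with it, a log2 fold change of -5.06 (SE 0.577, adjusted p = 1.25e-06 by edgeR's quasi-likelihood test). In the shScramble line it had 55, 26, 29 and 34 counts without and 22, 47, 56 and 87 with doxycycline. The keratins KRT8, KRT18, KRT19 and KRT7 averaged 602, 368, 194 and 254 CPM (counts scaled to library size). The epithelial marker EPCAM averaged 15.8 CPM and CDH1 0.434 CPM. Of the luminal breast markers, GATA3 averaged 14.6 CPM, whereas ESR1 averaged 0.00168, PGR 0.0253 and FOXA1 0.00487 CPM. Replicate 1 of both shScramble groups stood apart: its log2 values lay 0.424 (no doxycycline) and 0.448 (doxycycline) from its group by root mean square, against 0.236 to 0.308 in the other 14 libraries. The summed CPM of the members with at least 10 counts was 1193 and 1162 in those 2 libraries and 805 to 879 in the other 14.

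Death-domain and TRAF-binding receptors held the highest levels of the family in shAKAP2 cells. Levels of different genes are compared here as CPM per kilobase of annotated exon. In shAKAP2 cells without doxycycline TNFRSF21 (death receptor 6) stood first at 68.2 ± 0.966 CPM per kilobase (SD, n = 4), followed by TNFRSF12A, the receptor of TWEAK, at 45.2 ± 1.20. Next came the TRAIL receptor TNFRSF10B at 33.3 ± 1.29 and the main TNF receptor TNFRSF1A at 27.5 ± 1.31, and these 4 neighbours were separated by more than their SDs. TNFRSF10A at 11.4 ± 0.274 and CD40 at 9.30 ± 0.291 CPM per kilobase came after them. LTBR followed at 8.48 ± 0.302 and the ligand TNFSF10 (TRAIL) at 7.85 ± 1.10, and this last pair differed by less than the larger SD. With doxycycline in this line TNFRSF12A, at 62.7 ± 5.78, took the first place and TNFRSF21, at 49.1 ± 0.997, the next. In the shScramble groups TNFSF10 ranked as number 3 at 35.2 ± 31.9 and 37.0 ± 33.4 CPM per kilobase, with an SD close to its mean. That place rests on replicate 1: over the other 3 libraries TNFSF10 was number 5, at 19.4 ± 4.85 without and 20.4 ± 4.83 with doxycycline.

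**Figure D1:**
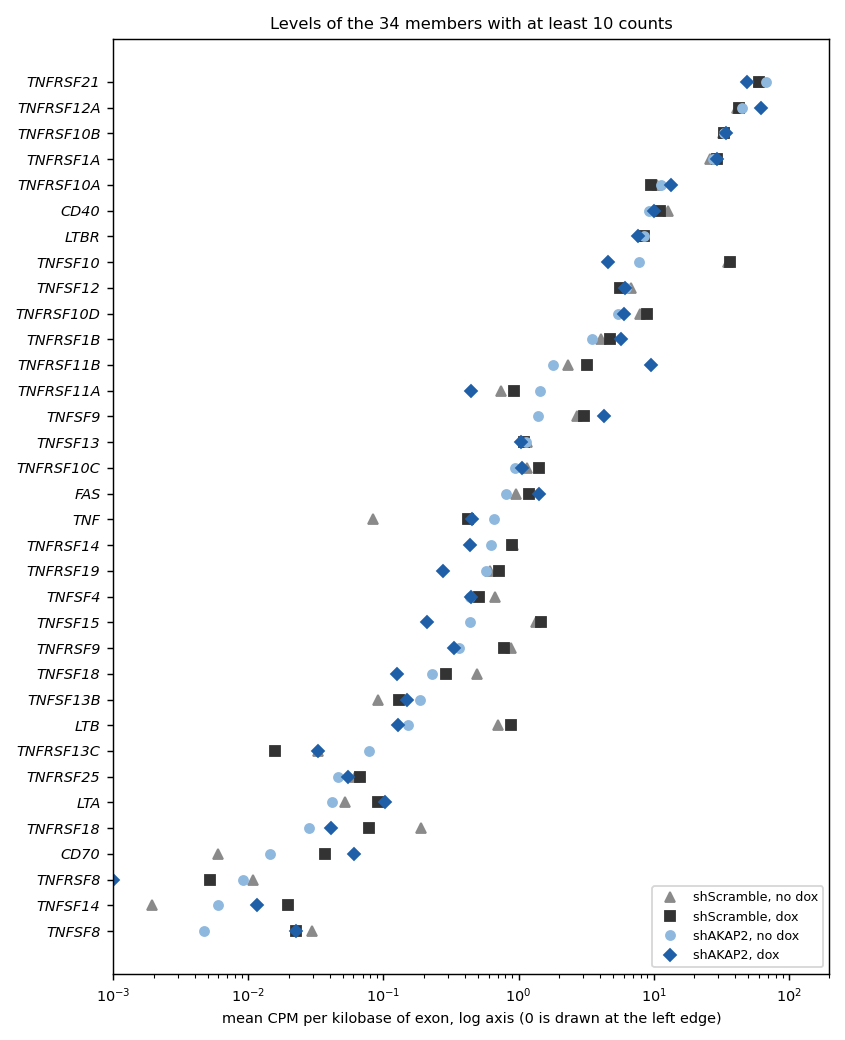
Mean CPM per kilobase of exon (log axis) of the 34 members with at least 10 counts, with 1 symbol for each of the 4 groups and 4 libraries behind each mean. TNFRSF21, TNFRSF12A, TNFRSF10B and TNFRSF1A are within the first 5 in all 4 groups, while TNFSF10, TNFSF15, LTB and TNF differ widely between groups.

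Several ligands of receptors that these cells expressed were at or near 0. RANKL (TNFSF11) had 1 count in all 16 libraries, FASLG had 2, and CD40LG, the CD40 ligand, which lies outside the naming rule, had 0. Also under 10 counts were EDAR with 1, TNFRSF17 with 1, TNFRSF13B with 2, CD27 with 3 and EDA2R with 5, while TNFRSF4 and TNFRSF6B had 0. All exon bases of TNFRSF6B (100%) are shared with the read-through gene RTEL1-TNFRSF6B, and reads of the pair cannot be told apart. Members with 10 counts or more that did not reach the filter for testing were TNFRSF25 (112 counts over 16 libraries), TNFRSF13C (75), LTA (55), TNFRSF18 (54), TNFSF8 (26), CD70 (21), TNFSF14 (20) and TNFRSF8 (12). The highest level of any of these 8 in a library was 0.743 CPM, for TNFRSF25. TNFRSF18 (GITR), a costimulatory receptor of T cells, had 6, 6, 4 and 14 counts in shScramble cells without doxycycline and 0, 2, 2 and 0 in shAKAP2 cells without it. TNFRSF13C (BAFF receptor) had 10, 4, 3 and 0 counts in the former and 11, 3, 10 and 13 in the latter.

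Doxycycline in the shAKAP2 line changed 8 of the 26 tested members. The decoy receptor TNFRSF11B (osteoprotegerin), the ligand TNFSF9 (4-1BB ligand), the death receptor FAS, the second TNF receptor TNFRSF1B and the TWEAK receptor TNFRSF12A rose, by 5.33-fold to 1.39-fold. RANK (TNFRSF11A), TNFRSF19 (TROY) and TNFRSF21 fell. The calls made up 30.8% of the tested members, beside 28.3% of all genes tested, and the split was 5 higher and 3 lower, against 13.1% higher and 15.2% lower of all genes. Each of the 8 kept its call when any 1 of the 8 shAKAP2 libraries was left out. The members' share is thus close to the background. The median size of the log2 change was 0.39 among the members and 0.25 among all genes. In bulk RNA, a change in the share of cells that express a gene and a change in RNA per cell cannot be told apart.

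The largest change was that of TNFRSF11B, on chromosome 8, whose product binds RANKL and TRAIL without signalling. Its level was 4.61, 4.49, 6.05 and 5.11 CPM in the uninduced shAKAP2 libraries and 25.1, 27.1, 28.98 and 26.8 CPM in the induced ones. Every induced library lay above every uninduced library, and the mean went from 5.07 ± 0.708 to 27.0 ± 1.59 CPM (SD, n = 4). On the log2 scale the change was 2.41 (SE 0.207, adjusted p = 3.39e-08), rank 173 by p among the genes tested.

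TNFSF9 lies on chromosome 19 (6530999 to 6535928, plus strand, GRCh38, GENCODE release 29) and encodes the ligand of the T cell costimulatory receptor 4-1BB. It measured 1.97, 1.96, 2.21 and 3.22 CPM without doxycycline and 6.88, 6.89, 9.10 and 5.56 CPM with it. The groups did not overlap, and the change on the log2 scale was 1.59 (SE 0.281, adjusted p = 0.000231). Its receptor TNFRSF9 was not called, at 2.31, 2.54, 2.59 and 1.69 CPM without and 2.10, 1.87, 2.14 and 2.34 CPM with doxycycline. Among the 10 tested ligands TNFSF9 was the member called in this comparison.

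FAS (chromosome 10, 88990582 to 89015785, plus strand) is the receptor of FAS ligand and assembles the caspase-8 activating complex. Values were 4.07, 2.65, 3.27 and 3.77 CPM without doxycycline and 6.30, 7.41, 4.55 and 5.93 CPM with it. The lowest induced library still lay above the highest uninduced library, with a log2 fold change of 0.81 (SE 0.198, adjusted p = 0.00395). Of its exon bases, 8.93% overlap ACTA2 on the opposite strand, and without a stated use of strand the reads of the pair cannot be told apart there.

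TNFRSF1B (chromosome 1, 12167003 to 12209228, plus strand), the TNF receptor without a death domain, measured 12.4, 13.1, 12.6 and 14.3 CPM without and 19.6, 22.5, 23.8 and 20.8 CPM with doxycycline. All induced libraries were higher, and the log2 fold change came to 0.72 (SE 0.108, adjusted p = 3.43e-05). Its partner TNFRSF1A, which carries the death domain, was not called, at a mean of 110.1 ± 5.23 against 119 ± 8.97 CPM (log2 0.11, SE 0.0901, adjusted p = 0.41). TNFRSF12A (chromosome 16, 3018445 to 3022383, plus strand), the receptor of TWEAK, went from 83.8, 86.0, 80.6 and 83.8 CPM to 103, 116, 129 and 116 CPM. These libraries did not overlap either, with a log2 fold change of 0.47 (SE 0.0894, adjusted p = 0.000439). The TWEAK gene TNFSF12 was not called, at 11.8 ± 1.27 and 11.6 ± 0.608 CPM (log2 -0.03, SE 0.132), and 29.43% of its exon bases are shared with the read-through gene TNFSF12-TNFSF13.

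Of the receptors that fell, TNFRSF11A (chromosome 18, 62325287 to 62391292, plus strand) is RANK, through which RANKL acts on mammary epithelium and osteoclasts. It measured 16.05, 12.7, 11.3 and 11.8 CPM in uninduced and 4.45, 4.25, 3.38 and 4.06 CPM in induced shAKAP2 libraries. The induced libraries were all lower, and the change on the log2 scale was -1.68 (SE 0.303, adjusted p = 0.00043). RANK fell and TNFRSF11B, the soluble decoy for its ligand, rose in the same libraries. TNFRSF19 (chromosome 13, 23570370 to 23676104, plus strand), a TRAF-binding receptor known from hair follicle and nervous tissue, measured 3.05, 2.07, 2.82 and 3.71 CPM without and 1.73, 1.39, 1.24 and 1.32 CPM with doxycycline. The groups were separate, with a log2 fold change of -1.04 (SE 0.266, adjusted p = 0.00534). TNFRSF21 (chromosome 6, 47231532 to 47309905, minus strand), a death-domain receptor, went from 245, 248, 247 and 240.2 CPM to 181, 174, 178 and 173 CPM. Replicates of this gene lay close together, and its log2 fold change was -0.47 (SE 0.0699, adjusted p = 2.96e-05).

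**Figure D2:**
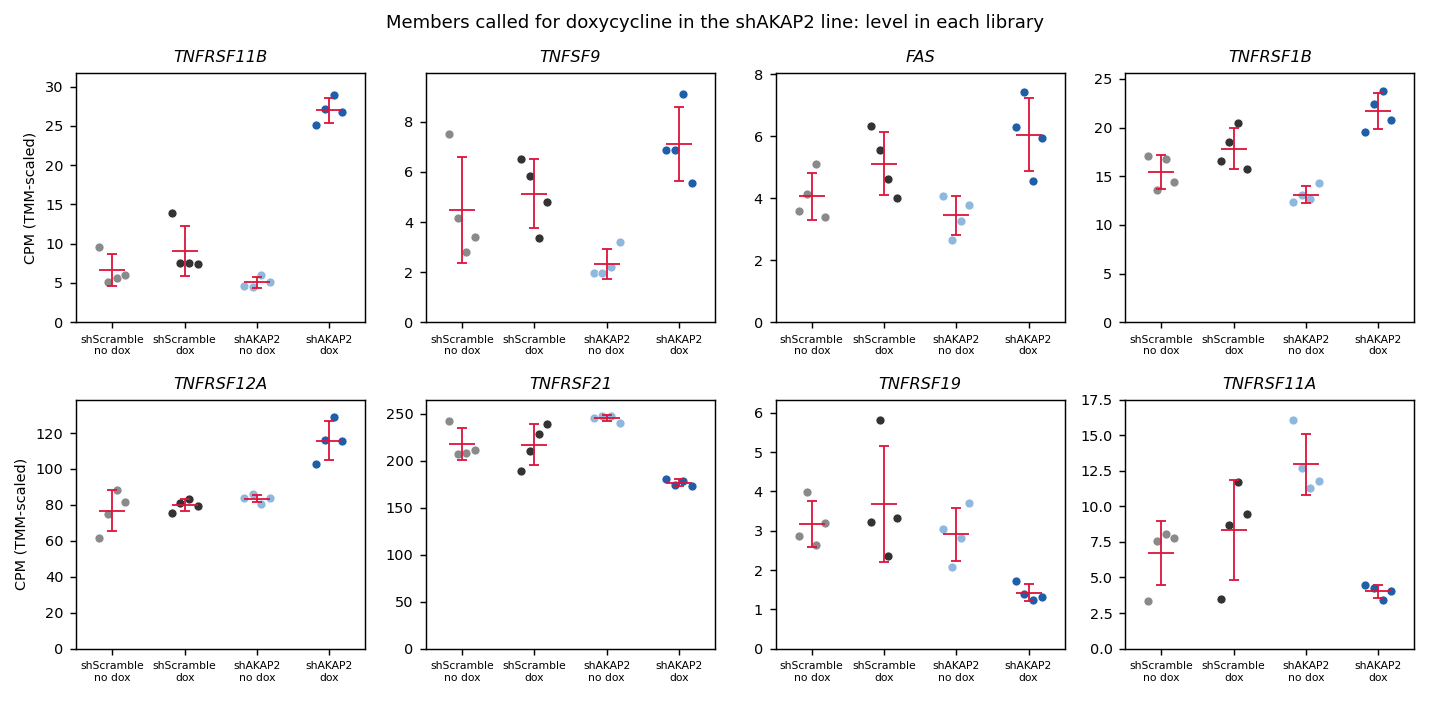
Level in each library (points, TMM-scaled CPM) of the 8 members called for doxycycline in the shAKAP2 line, by group, with the mean and SD of 4 libraries in red. In each panel the induced shAKAP2 libraries lie apart from the uninduced ones, from 5.07 to 27.0 CPM on average for TNFRSF11B and from 13.0 to 4.04 CPM for TNFRSF11A.

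Earlier results of these data drew attention to the word GAACACA in 3′ untranslated regions, so the members were searched for it on the transcript strand in GENCODE release 29. It stood in 32.6% of 2168 genes lower in induced shAKAP2 cells, 6.17% of 1912 higher genes, 10.8% of 8742 genes not called and 13.8% of all 12822 genes with an annotated region. Among the 26 tested members 2 held it, and both were among the 3 that fell. These sites are shown, 5′ to 3′ with the word in capitals, because they are the matches in members called lower. The TNFRSF19 word is at chr13:23674352-23674358 (plus strand, 3 of 4 annotated regions) and the TNFRSF21 word at chr6:47231919-47231925 (minus strand), both GRCh38.
TNFRSF19: gccttccgtgaGAACACAccacatgttagg
TNFRSF21: gagctgttctgGAACACAttgctgcacttt
TNFRSF11A, which fell more than either, did not hold the word in its annotated region, nor did any of the 5 members that rose. A match is a description of letters and was not tested as a site. The untested ligand TNFSF8 also held the word.

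The other 18 tested members were not called in the shAKAP2 line. Libraries of 5 of them nevertheless did not overlap: TNFSF10, TNFSF15 and LTBR lay lower with doxycycline, and TNFRSF10A and CD40 higher. With the 8 called members this makes 13 of 26 without overlap, beside 36.5% of all genes tested. TNFSF10 measured 26.6, 23.2, 26.7 and 32.4 CPM without and 11.7, 16.4, 17.5 and 18.2 CPM with doxycycline (log2 -0.77, SE 0.631, adjusted p = 0.408). TNFSF15 (TL1A) measured 4.11, 3.76, 2.82 and 3.17 against 1.77, 2.16, 1.73 and 0.988 CPM (log2 -1.06, SE 0.413, adjusted p = 0.0686). Both genes had their widest spread in the shScramble groups, which enter the shared estimate of variance. When both shScramble replicate 1 libraries were left out, these ligands and TNFRSF14 were called lower and TNFRSF10A higher, which gave 6 members higher and 6 lower, beside 39.4% of all genes. Adjusted p in that fit was 0.0127 for TNFSF10, 0.00015 for TNFSF15, 0.0412 for TNFRSF14 and 0.0241 for TNFRSF10A. The 2-group fit of the shAKAP2 libraries alone tested 24 of the 26 members, without LTB and TNFSF18, and also gave 6 lower members. The share of all genes called in that fit is not given here, so this count has no background beside it.

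For the remaining members the log2 fold change lay between -0.85 (TNFSF18, SE 0.623) and 0.19 (TNFRSF10C, SE 0.24). TNF itself was not called, at 35, 26, 34 and 33 counts without and 20, 27, 13 and 20 with doxycycline (log2 -0.53, SE 0.405, adjusted p = 0.367). LTB was not called at 29 counts in all against 20, nor TNFSF13B (BAFF) at 66 against 49, and counts this low leave wide errors. The TRAIL receptors TNFRSF10B, TNFRSF10C and TNFRSF10D had log2 fold changes of 0.05, 0.19 and 0.15. TNFSF4 (OX40 ligand) and TNFSF13 (APRIL) lay at 0.03 and -0.11, with SEs of 0.311 and 0.219. Of the exon bases of TNFSF13, 55.49% are shared with TNFSF12-TNFSF13, and 39.29% of those of TNFRSF10C with other genes, so these counts are uncertain.

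Markers of other cell types were also read in this line, where 28.3% of all genes tested were called and 15.2% were lower. Among blood cell markers 2 of 9 tested (LAPTM5 and CSF1R) were lower, and the summed level of the 14 listed genes ran from 71.6 to 82.2 CPM without and from 47.2 to 64.7 CPM with doxycycline. Leaving out LAPTM5, which made up most of that sum, the ranges overlapped, at 10.9 to 16.02 and 5.82 to 11.4 CPM. MS4A1 was at 0 in all 16 libraries and CD3E had 1 count in all, whereas the B cell gene CD79A had 6, 15, 0 and 2 counts without and 4, 5, 2 and 6 with doxycycline. Fibroblast markers were lower for 3 of 7, with sums of 21.6 to 33.6 and 19.6 to 21.8 CPM, and neither of 2 tested endothelial markers was called. Their part in the members' changes was not tested.

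In the shScramble line doxycycline changed 1 of the 26 members, TNF (chromosome 6, 31575567 to 31578336, plus strand), the founding cytokine of the family. This is 3.85% of the members, beside 1.08% of all genes tested (0.559% higher and 0.52% lower), and 3 members had an unadjusted p under 0.05. TNF had 10, 4, 2 and 2 counts without and 9, 27, 20 and 28 with doxycycline, or 0.269, 0.148, 0.0691 and 0.0732 against 0.351, 0.917, 0.783 and 0.766 CPM. Relative to depth the groups did not overlap, although replicate 1 with doxycycline lay near replicate 1 without it. TNF was also the 1 member without overlap, beside 4.43% of all genes. The change was 2.25 on the log2 scale (SE 0.475, adjusted p = 0.0177). The call was lost when any 1 of replicates 2, 3 and 4 of either group was left out (adjusted p from 0.0552 to 0.0804), and it was kept without both replicate 1 libraries (log2 3.04, adjusted p = 0.00131). In the fit of these 2 groups alone TNF was under the count filter and was not tested. The same fit without that filter, added after the data were seen, gave a log2 change of 2.26 that was not called (adjusted p = 0.279).

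Several blood cell markers also rose in these libraries, beside 0.559% of all genes called higher. Of 9 tested, 5 were higher with doxycycline and none lower, and their summed level ran from 81.9 to 103 CPM without and from 132 to 182 CPM with it. LAPTM5 made up most of that sum, and without it the ranges were 8.42 to 14.9 and 16.9 to 20.9 CPM, a split made after the values were seen. PTPRC (CD45) had 15, 2, 11 and 2 counts without and 10, 77, 41 and 50 with doxycycline, and CD53 had 0, 3, 0 and 2 against 1, 34, 42 and 32. As for TNF, replicate 1 with doxycycline was the lowest of its group for both genes. The same held for LAPTM5, TYROBP, FCER1G, AIF1, ITGAM and SPI1, but not for CD14, CSF1R and CD79A. For CD14 that library was the highest, at 11.97 CPM against 3.94 to 4.81 CPM. Among lymphocyte markers, CD3E and MS4A1 were at 0 in all 8 libraries, while CD79A had 7, 6, 6 and 0 counts without and 3, 2, 2 and 1 with doxycycline. Fibroblast markers were higher for 1 of 7, with a summed mean of 33.3 ± 10.2 against 57.9 ± 9.90 CPM. Without both replicate 1 libraries they were higher for 5 of 8, beside 6.36% of all genes called. The part of other cell types in the TNF result was not tested.

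The other 25 members were not called in the shScramble line. TNFRSF11B measured 9.61, 5.16, 5.66 and 6.004 CPM without and 13.9, 7.61, 7.55 and 7.44 CPM with doxycycline, which overlap (log2 0.45, SE 0.203, adjusted p = 0.487). TNFRSF11A measured 3.36, 7.60, 8.08 and 7.80 against 3.47, 8.66, 11.7 and 9.46 CPM (log2 0.32, SE 0.293, adjusted p = 0.834), with replicate 1 lowest on both sides. CD40 had the smallest p after TNF and lay at 32.2 ± 2.71 against 28.2 ± 1.46 CPM (log2 -0.19, SE 0.0764, adjusted p = 0.383).

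**Figure D3:**
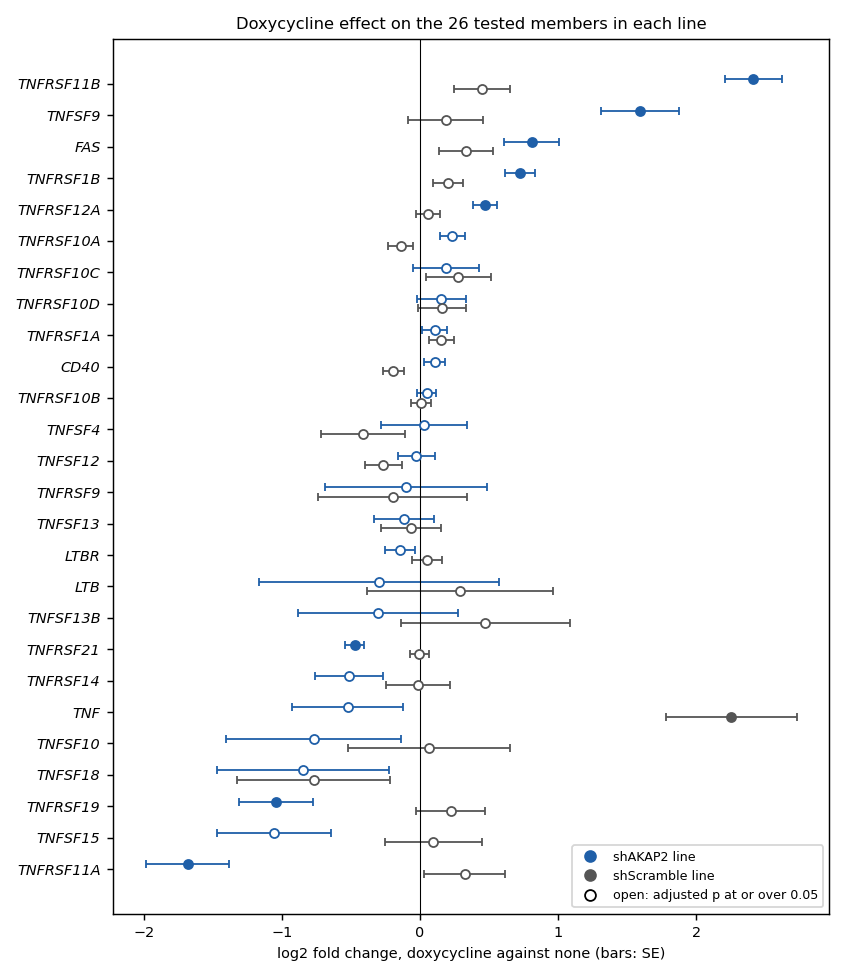
Log2 fold change with doxycycline (points, with SE bars) of the 26 tested members in the shAKAP2 line and the shScramble line. Filled points have an adjusted p under 0.05: 8 in the shAKAP2 line, from -1.68 for TNFRSF11A to 2.41 for TNFRSF11B, and TNF at 2.25 in the shScramble line.

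The doxycycline effect differed between the lines for 9 members, tested as an interaction. This is 34.6% of the 26, beside 18% of all genes tested, with 5 differences above 0 and 4 below, against 7.53% and 10.5% of all genes. Differences are the shAKAP2 effect minus the shScramble effect on the log2 scale. TNFRSF11B stood at 1.96 (SE 0.287, adjusted p = 6.89e-05), TNFSF9 at 1.41 (SE 0.389, adjusted p = 0.016) and TNFRSF1B at 0.52 (SE 0.152, adjusted p = 0.0211). Smaller positive differences were those of TNFRSF12A at 0.41 (SE 0.126, adjusted p = 0.0272) and TNFRSF10A at 0.37 (SE 0.128, adjusted p = 0.0478).

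Negative differences were largest for TNF at -2.78 (SE 0.624, adjusted p = 0.00359), with log2 changes of -0.53 in the shAKAP2 and 2.25 in the shScramble line. TNFRSF11A followed at -2.01 (SE 0.421, adjusted p = 0.00292), TNFRSF19 at -1.26 (SE 0.364, adjusted p = 0.0196) and TNFRSF21 at -0.47 (SE 0.0986, adjusted p = 0.0021). Beside TNF, 7 of 9 blood cell markers and 4 of 7 fibroblast markers had negative differences past the threshold, against 10.5% of all genes. None of either list had a positive one. FAS was called within the shAKAP2 line, but its difference was not (log2 0.48, SE 0.278, adjusted p = 0.264). Without both shScramble replicate 1 libraries 6 differences were positive and 5 negative, and the share of all genes called also rose, from 18% to 30.6%. The members added were CD40 (0.33, adjusted p = 0.0342) and TNFSF15 (-1.26, adjusted p = 0.0014). TNFRSF10A lost its call in 11 of the 16 fits that each left out 1 library, and kept it without shScramble replicates 1 and 2 without doxycycline, shScramble replicates 1 and 4 with it and shAKAP2 replicate 1 with it. TNFRSF12A lost it without replicate 3 or 4 of uninduced shScramble or replicate 3 of either shAKAP2 group (adjusted p from 0.0563 to 0.0741). TNFRSF19 lost it without induced shScramble replicate 2 (0.0545) or uninduced shAKAP2 replicate 4 (0.0516), and TNFRSF1B without induced shAKAP2 replicate 3 (0.0545).

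The lines already differed without doxycycline, at 7 of 26 members. This is 26.9%, beside 18% of all genes tested, and the split was 2 higher and 5 lower, against 8.65% and 9.31%. These comparisons reuse the libraries of the doxycycline contrasts, so the values are given side by side. In shAKAP2 cells TNF and TNFRSF11A were higher, and TNFSF10, TNFSF15, TNFRSF10D, CD40 and TNFSF9 lower, than in shScramble cells. Libraries of 5 members did not overlap, beside 25.5% of all genes tested.

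TNF, with the counts given above, was 2.88 higher on the log2 scale (SE 0.47, adjusted p = 0.000357). In the same comparison 6 of 9 blood cell markers were higher and 1 lower, beside 8.65% and 9.31% of all genes. CD53 had 36, 25, 26 and 23 counts in shAKAP2 and 0, 3, 0 and 2 in shScramble libraries. CD14 went the other way, at 1.12 to 2.19 against 2.75 to 7.41 CPM. LAPTM5 measured 60.6 to 68.4 against 67.0 to 91.9 CPM. The summed level of the listed blood cell markers was 71.6 to 82.2 against 81.9 to 103 CPM, and without LAPTM5 10.9 to 16.02 against 8.42 to 14.9 CPM. Fibroblast markers were higher for 2 and lower for 1 of 7. The part of other cell types was not tested here either. TNFRSF11A was 0.96 higher on the log2 scale (SE 0.292, adjusted p = 0.0315). This call was lost without shScramble replicate 1, without shAKAP2 replicate 1 or 2 and without a filter (adjusted p from 0.0581 to 0.0937). Without both shScramble replicate 1 libraries TNFRSF11A was 0.73 higher and called (SE 0.145, adjusted p = 0.000277). CD40, the receptor of B cell help, measured 24.3, 22.5, 23.5 and 23.8 CPM in shAKAP2 and 32.3, 28.4, 34.4 and 33.9 CPM in shScramble cells. It did not overlap and was 0.46 lower (log2 -0.46, SE 0.0767, adjusted p = 0.00047). TNFSF9 was lower with overlapping libraries (log2 -0.93, SE 0.282, adjusted p = 0.0273), and its call was lost without both shScramble replicate 1 libraries (adjusted p = 0.0753).

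TNFSF10 encodes TRAIL, which binds TNFRSF10A and TNFRSF10B as death receptors and TNFRSF10C, TNFRSF10D and TNFRSF11B as decoys. In shScramble cells it measured 287, 86.7, 56.3 and 59.1 CPM without and 301, 90.0, 59.0 and 63.6 CPM with doxycycline, so that replicate 1 lay far above the others in both groups. All 8 shScramble libraries lay above all 8 shAKAP2 libraries. The difference of the lines was -2.17 (log2, SE 0.622, adjusted p = 0.0312) without doxycycline and -3.004 (SE 0.651, adjusted p = 0.00264) with it. The call without doxycycline was lost in 5 of the 8 fits that each left out 1 library, those of shScramble replicate 1 and of each shAKAP2 library (adjusted p from 0.0594 to 0.104). Without both replicate 1 libraries it was smaller in size but called, at -1.30 (adjusted p = 0.000965) and -2.15 (adjusted p = 9.06e-06). TNFRSF10D, a decoy with a shortened death domain, measured 39.1, 28.2, 20.5 and 24.4 CPM in shScramble and 21.2, 17.7, 19.7 and 17.99 CPM in shAKAP2 cells without doxycycline. These overlap, with a log2 difference of -0.55 (SE 0.177, adjusted p = 0.0375), and -0.35 (adjusted p = 0.0355) without both replicate 1 libraries. Its call was lost in 6 of the 8 fits that each left out 1 library, those of shScramble replicate 1 or 2 and of each shAKAP2 library (adjusted p from 0.0586 to 0.125), and without a filter (0.0533). The signalling TRAIL receptor TNFRSF10B was not called, at means of 169 ± 18.3 and 172 ± 6.63 CPM.

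TNFSF15 (chromosome 9, 114784635 to 114806126, minus strand) is the ligand of TNFRSF25. It measured 19.7, 9.41, 8.01 and 5.60 CPM in shScramble cells without and 19.7, 9.38, 9.82 and 7.19 CPM with doxycycline, again with replicate 1 the highest. Every shAKAP2 library was lower, and the log2 difference was -1.63 (SE 0.373, adjusted p = 0.00769) without doxycycline and -2.79 (SE 0.405, adjusted p = 4.76e-05) with it. The values without both replicate 1 libraries were -1.14 (adjusted p = 6.32e-05) and -2.40 (adjusted p = 4.27e-11).

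With doxycycline in both lines 12 of the 26 members differed, 46.2% beside 40.2% of all genes tested, with 4 higher and 8 lower against 18.7% and 21.5%. Higher in shAKAP2 cells were TNFRSF11B (log2 1.57, adjusted p = 3.7e-06), TNFRSF12A (0.54, adjusted p = 6.94e-05), TNFRSF10A (0.49, adjusted p = 0.00023) and TNFRSF1B (0.28, adjusted p = 0.0399). TNFRSF10A (TRAIL receptor 1) measured 37.5, 42.3, 38.7 and 39.9 CPM in induced shAKAP2 cells and 31.3, 24.5, 27.1 and 30.1 CPM in induced shScramble cells, without overlap. TNFRSF1B measured 16.5, 18.5, 20.5 and 15.7 CPM in induced shScramble cells and overlapped. Its call was lost without both replicate 1 libraries (adjusted p = 0.0632), in the 2-group fit (adjusted p = 0.0624) and without a filter (adjusted p = 0.0595), and that of TNFSF9 as higher was gained in the former (adjusted p = 0.0208).

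Lower in induced shAKAP2 cells were TNFSF10, TNFSF15, LTB, TNFRSF14, TNFRSF19, TNFRSF11A, TNFRSF10D and TNFRSF21. LTB (chromosome 6, 31580525 to 31582522, minus strand), which pairs with LTA to engage LTBR, had 2.14, 1.53, 1.21 and 0.519 CPM in induced shScramble and 0.494, 0, 0.188 and 0.11 CPM in induced shAKAP2 libraries. The groups were just separate, with a log2 difference of -2.77 (SE 0.795, adjusted p = 0.00901). TNFRSF14 (HVEM), the receptor of LIGHT and of BTLA, measured 6.86, 5.78, 5.32 and 4.46 against 4.16, 2.35, 2.07 and 2.34 CPM (log2 -1.04, SE 0.245, adjusted p = 0.00202). It did not overlap, and 13.36% of its exon bases are shared with TNFRSF14-AS1 on the opposite strand.

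TNFRSF19 was 1.38 lower (log2 -1.38, SE 0.265, adjusted p = 0.000317), with 3.24, 5.81, 2.35 and 3.33 CPM in induced shScramble cells. TNFRSF21, at 189, 211, 228 and 239 CPM there, was lower by a smaller amount (log2 -0.30, SE 0.0698, adjusted p = 0.00197). Libraries of both were separate. TNFRSF11A overlapped, with shScramble replicate 1 at 3.47 CPM (log2 -1.05, SE 0.304, adjusted p = 0.0107), and TNFRSF10D overlapped as well (log2 -0.56, SE 0.176, adjusted p = 0.0167). In all, 11 members did not overlap, beside 37.8% of all genes tested. Some markers of other cell types differed between the induced lines as well, beside 18.7% higher and 21.5% lower of all genes. Blood cell markers were lower in shAKAP2 cells for 3 of 9 and higher for none, with sums of 47.2 to 64.7 against 132 to 182 CPM. LAPTM5 made up most of these sums, which were 5.82 to 11.4 against 16.9 to 20.9 CPM without it. Fibroblast markers were lower for 4 and higher for 1 of 7, with sums of 19.6 to 21.8 against 46.7 to 70.5 CPM. Both tested endothelial markers were lower, and that list summed to 3.33 to 8.36 against 10.4 to 13.9 CPM. Their part in the members' differences was not tested.

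Replicate 1 of both shScramble groups was the highest library of its group for 12 of the 26 tested members, or 46.2%, beside 20.4% of all genes tested. TNFSF10, TNFSF15, TNFRSF9 and LTB, picked after their values were seen, are 4 of these 12. The others were TNFRSF11B, TNFRSF10D, LTBR, TNFRSF14, TNFRSF1A, TNFSF9, TNFRSF10B and TNFSF12, while TNFRSF11A and TNFRSF12A were lowest there in both groups. For TNFRSF12A replicate 1 measured 61.4 CPM without doxycycline (others 75.2 to 88.1) and 75.2 CPM with it (others 79.4 to 83.1). TNFRSF9 (4-1BB) measured 13.2, 5.02, 2.14 and 1.87 CPM without and 10.1, 4.35, 2.66 and 2.57 CPM with doxycycline, and LTB 2.63, 0.738, 0.691 and 0.256 CPM without. The promoters of these 4 genes were searched, in RefSeq windows of 300 bases (250 before and 50 after the start, GRCh38.p14), on both strands for the NF-kB consensus, the AP-1 word TGANTCA and the interferon response element word GAAA, any 2 bases, GAAA. Of 35116 windows, 11.3%, 7.71% and 3.57% held them. Of the 26 tested members 18 had windows, 24 in all, and 29.2%, 12.5% and 20.8% of the 24 held them in that order, in 6, 3 and 4 members. Matches in the 4 genes are printed on the transcript strand, 5′ to 3′ with the match in capitals, to show the letters in the 4 genes picked, and the other 8 members with that order of libraries are not shown. The windows are chr1:7940894-7940923 and chr1:7940865-7940894 for TNFRSF9, chr6:31582492-31582521 for LTB, chr3:172523598-172523627 for TNFSF10 and chr9:114792632-114792661 for TNFSF15, all on the minus strand.
TNFRSF9 NF-kB: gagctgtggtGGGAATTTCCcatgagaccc
TNFRSF9 AP-1: ccgcccctggcTGAGTCAccgcactcctgt
LTB NF-kB, antisense: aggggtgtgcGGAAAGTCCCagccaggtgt
TNFSF10 interferon word, antisense: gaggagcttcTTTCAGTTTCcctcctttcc
TNFSF15 AP-1: actctttcttcTGAGTCAccctgtccttgg
None of the printed matches overlapped another motif. The printed NF-kB match of TNFRSF9 (first base at -74) overlaps an antisense match to the same consensus at -73, which is not printed. A further match of LTB to the NF-kB consensus is not printed. These matches describe letters and say nothing of binding in these cells.

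**Figure D4:**
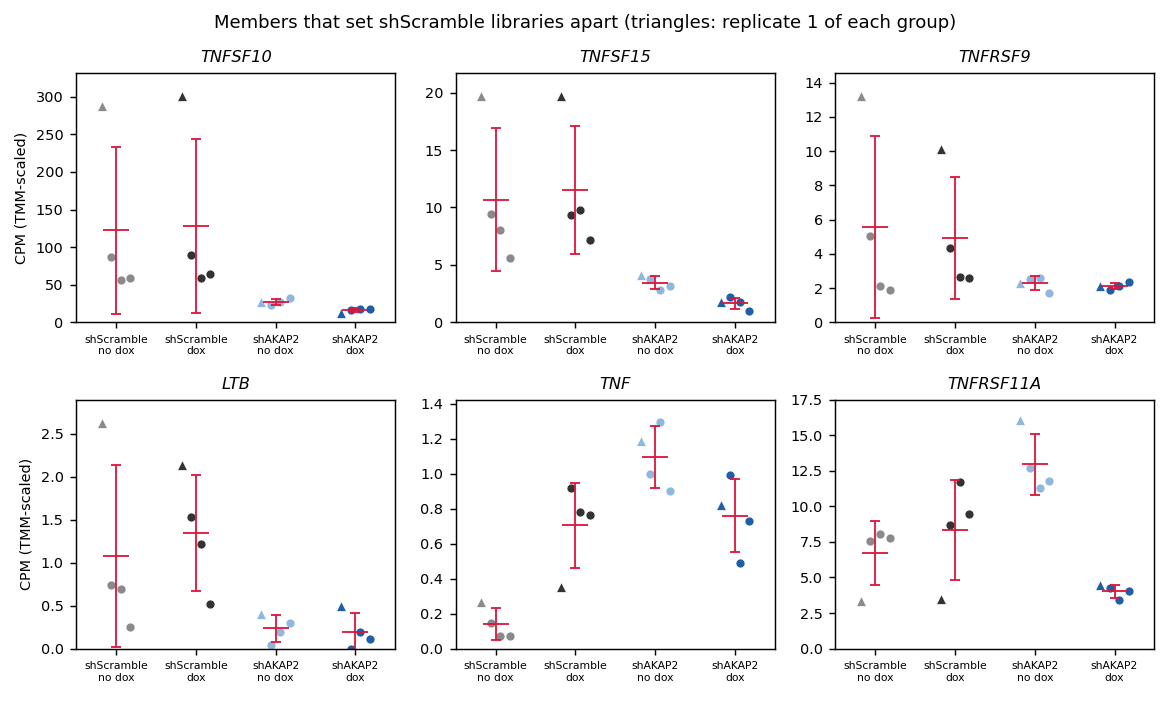
Level in each library (TMM-scaled CPM) of 6 members, by group, with triangles for replicate 1 and the mean and SD of 4 libraries in red. For TNFSF10 the shScramble triangles lie at 287 and 301 CPM above all other libraries, and for TNF the shScramble libraries without doxycycline lie lowest.

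Genes around the receptors were read from fixed lists. Of 35 adaptors, kinases and NF-kB subunits, 6 were higher and 7 lower with doxycycline in the shAKAP2 line, beside 13.1% higher and 15.2% lower of all genes tested. Their median log2 change was -0.03, beside 0.0016 over all genes. In the shScramble line none was called, beside 1.08% of all genes. MAP3K14, the NF-kB inducing kinase of the non-canonical arm, rose by 0.93 on the log2 scale (SE 0.127, adjusted p = 1.24e-05). TRAF4, a TRAF adaptor, rose by 0.58 (adjusted p = 0.000232), and NFKBIE, an inhibitor of NF-kB, by 0.41 (adjusted p = 0.0031). IKBKB, the canonical IkB kinase, fell by 0.50 on the log2 scale (adjusted p = 0.000152). The difference between the lines was called for 2 of the 35, beside 18% of all genes. These were MAP3K14 (0.76, adjusted p = 0.00528) and IKBKB (-0.53, adjusted p = 0.0035), and not TRAF4 (adjusted p = 0.0643) or NFKBIE (0.0594). Without both shScramble replicate 1 libraries 9 were higher and 11 lower in the shAKAP2 line, beside 39.4% of all genes called, and 4 differences were positive and 4 negative, beside 30.6%.

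In the death arm below FAS and the TRAIL receptors, 3 of 11 genes were higher and 2 lower, beside the same 28.3% of all genes called. CASP8, the initiator caspase, rose by 0.56 on the log2 scale (adjusted p = 0.000211). XIAP, which inhibits caspases, fell by 0.64 on that scale (adjusted p = 5.81e-06). Without doxycycline XIAP was already lower in shAKAP2 than in shScramble cells (log2 -0.57, adjusted p = 8.53e-05). The other gene called lower was BID, which fell by 0.38 (adjusted p = 0.0185). Among the 5 genes that shed the family's ligands and receptors or regulate shedding, ADAM17, the TNF-converting enzyme, rose by 0.66 (adjusted p = 0.000329). Its inhibitor TIMP3 fell by 1.10 (adjusted p = 0.000136), its cofactor RHBDF1 fell by 0.87 (adjusted p = 0.000299) and ADAM10 fell by 0.37 (adjusted p = 0.00293), all on the log2 scale. None of either list was called in the shScramble line, beside 1.08% of all genes. The difference between the lines was called for CASP8 (0.69, adjusted p = 0.00154), XIAP (-0.57, adjusted p = 0.00139) and 2 further genes of the death arm. It was also called for ADAM17 (0.57, adjusted p = 0.0264), TIMP3 (-1.29, adjusted p = 0.00119), RHBDF1 (-1.18, adjusted p = 0.000727) and ADAM10 (-0.49, adjusted p = 0.00781), beside 18% of all genes.

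Of 23 NF-kB target genes, 2 were higher and 3 lower in the shAKAP2 line, beside 28.3% of all genes called. In the shScramble line none was called, beside 1.08% of all genes. LIF and NFKB2 rose by 0.34 and 0.36, while TRAF1 fell by 0.50 and TNFAIP2 fell by 1.01 on the log2 scale (adjusted p = 0.00628, 0.00773, 0.00879 and 0.011). The list's median log2 change was -0.46, and most of its members did not pass the test. The difference between the lines was called for 2 of the 23, beside 18% of all genes. LIF was 1 of them (0.64, adjusted p = 0.00105), and NFKB2 (adjusted p = 0.315), TRAF1 (0.287) and TNFAIP2 (0.113) were not. Between the lines, 3 were higher and 7 lower in shAKAP2 cells without doxycycline, beside 18% of all genes, and 1 higher and 12 lower with it, beside 40.2%. These counts moved without both shScramble replicate 1 libraries: 3 were then higher and 9 lower with doxycycline in the shAKAP2 line (39.4% of all genes called), 4 higher in the shScramble line (6.36%), and 1 difference was positive and 12 negative (30.6%). Between the lines they were 5 and 9 without doxycycline (26.4%) and 2 and 14 with it (43.5%). Of 3 tested relatives outside the naming rule, NGFR, the p75 neurotrophin receptor, fell with doxycycline in the shAKAP2 line (log2 -0.58, SE 0.145, adjusted p = 0.00552). Its counts there were 490, 336, 377 and 551 without and 229, 235, 295 and 285 with doxycycline, against 3087 to 4188 in shScramble cells without doxycycline. The line difference without doxycycline was -3.07 on the log2 scale (SE 0.143, adjusted p = 2.3e-10). For NGFR the difference of doxycycline effects between the lines was not called (log2 -0.53, SE 0.194, adjusted p = 0.0681).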

How the data were processed

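The deposited values are unnormalized read counts per gene for 16 libraries, made by the authors. Per the labels' protocols, RNA was selected with oligo(dT) and prepared with the NEBNext Ultra II RNA kit. STAR 2.5.2b, featureCounts, Subread 1.5.2 and GRCh38 are named in the submitters' processing notes, while annotation release and strand use are not stated in the sources used here. Counts were filtered with filterByExpr, scaled by TMM and fitted with edgeR 4.0.16 (robust quasi-likelihood, a mean per group, 12 residual degrees of freedom) in R 4.3.3. P-values were adjusted by Benjamini-Hochberg over 15566 genes, and an adjusted p under 0.05 is a call. SEs were derived from the F statistic, and CPM uses TMM-adjusted library sizes. Comparisons were doxycycline in each line, the interaction, and the lines without and with doxycycline. The steps were tested on simulated data. DESeq2 1.42.0, limma 3.58.1 (voom), RLE scaling, no filter, 2-group fits, a replicate block and left-out libraries were the alternatives. Members called in any comparison and the 4 called genes of each pathway list with the smallest p were named. Members and lists were chosen with earlier results of these data known. Positions and 3′ untranslated regions are from GENCODE release 29, promoters from RefSeq. Some genes of the pathway and marker lists are not reported here by name.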

Additional observations from a re-analysis of the deposited data

Results flagged for a closer look

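In 8 of the 104 sets of 4 libraries examined (26 members in 4 groups), 1 library lay far from the others by Dixon's criterion, and chance flags about 1 set in 20. Replicate 1 of the shScramble line accounted for 5 of these. It measured 287 CPM of TNFSF10 without doxycycline (others 56.3 to 86.7) and 301 with it (others 59.0 to 90.0). Without doxycycline it measured 243 CPM of TNFRSF21 (others 207.5 to 211.5) and 3.36 CPM of TNFRSF11A (others 7.60 to 8.08). With doxycycline it measured 13.9 CPM of TNFRSF11B (others 7.44 to 7.61). In induced shAKAP2 cells, replicate 1 had 4.16 CPM of TNFRSF14 (others 2.07 to 2.35) and replicate 2 had 2.79 CPM of TNFRSF10C (others 1.69 to 1.79). In uninduced shAKAP2 cells replicate 2 had 9.87 CPM of TNFSF12 (others 12.3 to 12.5).

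The doxycycline effect differed between the lines by the interaction test of edgeR, on the log2 scale, for TNFRSF11B (1.96), TNFSF9 (1.41), TNFRSF1B (0.52), TNFRSF12A (0.41), TNFRSF10A (0.37), TNFRSF21 (-0.47), TNFRSF19 (-1.26), TNFRSF11A (-2.01) and TNF (-2.78).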

How the results depend on the processing

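None of the called values changed sign under an alternative that was run. DESeq2 and RLE scaling kept the call of each called member. Leaving out 1 library at a time gave 5 higher and 3 to 4 lower members for doxycycline in the shAKAP2 line. It gave 0 to 2 higher and 0 lower in the shScramble line, and 2 to 6 higher and 3 to 5 lower for the difference. Between the lines it gave 1 to 2 higher and 2 to 6 lower without doxycycline, and 3 to 4 higher and 7 to 8 lower with it. Calls over all genes in these fits numbered 3595 to 4028, 101 to 409, 2249 to 3622, 1669 to 2592 and 5547 to 6053 in that order. With all libraries they numbered 4405, 168, 2802, 2795 and 6251. Without a filter, 1 member was higher in shAKAP2 cells without doxycycline, where TNFRSF11A (adjusted p = 0.0581) and TNFRSF10D (0.0533) lost their calls, and TNFRSF10A lost its difference (0.0636). Fits of 2 groups gave 6 lower members of 24 tested in the shAKAP2 line, where LTB and TNFSF18 were not tested. The share of all genes called in that fit is not given here. In the shScramble line 0 members were higher, and TNF was under the filter and not tested. Without the filter, a fit added after the data were seen, that count was also 0 (TNF adjusted p = 0.279). Fits of 2 groups were not run for the difference. Without both shScramble replicate 1 libraries, 6 members were lower with doxycycline in the shAKAP2 line (39.4% of all genes called). In that fit 5 were higher in shAKAP2 cells without doxycycline (26.4% of all genes called). Under limma-voom TNFSF9 lost its call between the lines without doxycycline (adjusted p = 0.0656). In that comparison, single left-out libraries ended the calls of TNFSF10 (shScramble replicate 1 or any shAKAP2 library), TNFRSF10D (shScramble replicate 1 or 2 or any shAKAP2 library), TNFSF9 (shScramble replicate 1 or shAKAP2 replicate 1, 2 or 3) and TNFRSF11A (shScramble replicate 1 or shAKAP2 replicate 1 or 2). With doxycycline they ended those of TNFRSF1B (shScramble replicate 1, 2 or 4 or shAKAP2 replicate 2, 3 or 4) and TNFRSF10D (replicate 1 of either line).

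Over all genes, calls for doxycycline in the shScramble line numbered 168, against 300 by DESeq2, 37 in the 2-group fit, 1002 without both replicate 1 libraries and 101 to 409 with 1 library left out. The difference had 2802, against 4823 without both replicate 1 libraries, and the lines without doxycycline 2795, against 1669 to 2592 with 1 library left out and 4156 without both replicate 1 libraries.

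The replicate numbers are shared between groups, but the labels do not say what they share. Deviations of same-numbered libraries correlated at 0.00496 to 0.0826 in the shAKAP2 line and 0.0431 to 0.537 in the shScramble line, highest for replicate 1, and 2 of 4 libraries correlated best with their own number in each. With the replicate block, 5 members were higher and 4 lower in the shAKAP2 line, 1 and 0 in the shScramble line, 5 and 5 for the difference, 2 and 6 without and 4 and 8 with doxycycline between lines. Over all genes the share called with the block was 29.2%, 1.11%, 18.7%, 18.4% and 40.7% in that order. The members the block added were TNFSF15, lower in the shAKAP2 line (log2 -1.08, adjusted p = 0.0021) and in the difference (-1.23, adjusted p = 0.00969), and LTB, lower between the lines without doxycycline (-1.87, adjusted p = 0.0442). Members with few counts, such as TNF and LTB, are limited by depth.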
